A study of Mus musculus with 24 samples.

Results

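The Hox genes encode homeodomain transcription factors that lie in clusters A to D, and 38 of these genes were studied in 3 tissues of mice aged 18 months. Of the 38 genes, 34 had at least 1 probe set that the platform's annotation assigned to 1 gene, giving 42 Hox probe sets of 45037 tested. There were 28 genes with 1 probe set and 6 with more, and no named probe set was found for Hoxa6, Hoxc6, Hoxc11 and Hoxc12. The Atxn2 Knock-In mice carried 2 copies of Atxn2, the gene of ataxin-2, in which a CAG repeat replaced the mouse gene's single CAG. They are called CAG42 mice in the study. The WT mice were their littermates from heterozygous matings in the same line, which had been bred to C57BL/6. There were 24 Affymetrix arrays, 4 of Knock-In and 4 of WT mice for each of brainstem, cerebellum and liver, and no pooling of mice is stated. The neomycin cassette used to make the line had been removed, and neither the sex of the array mice nor how the brainstem was cut out is stated.

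During development Hox genes are switched on in an order that follows their order along the cluster, and genes at the same place in different clusters form a paralog group. Low-numbered groups pattern the hindbrain, middle groups the neck and chest, and high-numbered groups the lower trunk, limbs and genitals. The anterior hindbrain, from which most of the cerebellum arises, develops outside the Hox domain, whereas the lower brainstem lies within it. Retinoic acid induces the anterior genes, and Polycomb and trithorax proteins keep the pattern of silent and active genes in later life.

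Levels are the deposited log2 RMA values, in which 1 unit is a 2-fold difference. A tissue difference was called if limma's adjusted p (Benjamini-Hochberg over all 45037 probe sets) was under 0.05 and the difference was at least 1 on the log2 scale. A gene with several probe sets is given by its brightest one. The fit holds 1 spread per probe set for all tissues. A gene that varied more between brainstem mice than in the other tissues thus has too small an SE in brainstem comparisons. In whole tissue, fewer cells of a type and less RNA per cell cannot be told apart.

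The tissue labels were set against marker genes. Granule cell markers averaged 7.39 to 8.08 in the brainstem arrays, 10.53 to 10.83 in the cerebellum arrays and 3.20 to 3.42 in the liver arrays. Markers of monoamine, cholinergic and glycinergic neurons averaged 6.39 to 6.71 in brainstem, 3.66 to 4.12 in cerebellum and 3.21 to 3.39 in liver, and hepatocyte markers 3.15 to 3.55 in brainstem, 3.13 to 3.30 in cerebellum and 12.94 to 13.07 in liver. Of 7 measured markers of these neurons 6 were higher in brainstem than in cerebellum, beside 6.87% of all probe sets. The exception was Slc5a7, the only cholinergic marker measured, at 2.91 in brainstem, 2.94 in cerebellum and 3.01 in liver. The set thus does not show cholinergic neurons. Replicate arrays correlated at 0.9857 or more in every group other than liver WT, where 1 array (replicate 1) brought the lowest r to 0.9537. For Atxn2 itself the 5 probe sets differed between Knock-In and WT by -0.32 to 0.08, none called in any tissue, and these probe sets do not check the repeat.

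Promoters of 4 of the genes with higher levels in brainstem than in cerebellum are shown first. These genes also varied together between brainstem mice, as did others that are not shown, such as Hoxa3. Each line gives the 250 bases before the start of the gene, 5′ to 3′, from RefSeq (assembly GRCm38.p6). Capitals mark TGATNNAT, the joint motif of Hox and Pbx proteins, and CCAAT, the motif of the factor NF-Y, on either strand.
Hoxa5 promoter, chr6:52204588-52204837, - strand: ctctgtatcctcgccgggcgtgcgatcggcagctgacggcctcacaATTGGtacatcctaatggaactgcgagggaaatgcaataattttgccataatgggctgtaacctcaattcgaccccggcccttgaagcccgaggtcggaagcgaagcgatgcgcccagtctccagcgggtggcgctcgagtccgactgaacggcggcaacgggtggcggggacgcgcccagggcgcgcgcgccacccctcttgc
Hoxb8 promoter, chr11:96281655-96281904, + strand: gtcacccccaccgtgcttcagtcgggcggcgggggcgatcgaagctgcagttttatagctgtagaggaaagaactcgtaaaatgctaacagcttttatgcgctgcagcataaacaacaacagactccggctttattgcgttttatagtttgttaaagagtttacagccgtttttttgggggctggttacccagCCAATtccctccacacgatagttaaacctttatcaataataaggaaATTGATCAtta
Hoxb4 promoter, chr11:96318017-96318266, + strand: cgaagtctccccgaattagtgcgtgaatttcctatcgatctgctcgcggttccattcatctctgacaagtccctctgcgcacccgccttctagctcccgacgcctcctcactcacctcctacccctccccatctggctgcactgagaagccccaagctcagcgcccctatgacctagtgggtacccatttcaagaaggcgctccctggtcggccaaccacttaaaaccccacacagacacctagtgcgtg
Hoxc4 promoter, chr15:103034145-103034394, + strand: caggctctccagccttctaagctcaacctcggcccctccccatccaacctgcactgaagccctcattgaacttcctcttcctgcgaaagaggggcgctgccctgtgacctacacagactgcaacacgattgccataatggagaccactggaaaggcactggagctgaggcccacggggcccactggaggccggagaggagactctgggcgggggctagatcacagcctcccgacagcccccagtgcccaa
The promoter of Hoxb8 held both motifs, that of Hoxa5 held CCAAT, and those of Hoxb4 and Hoxc4 held neither; no match overlapped another. Of 32851 promoters of this length, 7.68% held TGATNNAT and 33.85% held CCAAT. In the 24 promoters listed for 22 of the 38 Hox genes, TGATNNAT occurred in 4 and CCAAT in 14. A match is a string of letters, not a shown binding site.

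The first comparison asked which Hox genes differed in RNA level between the adult brainstem and cerebellum. Of the 42 Hox probe sets 15 were higher in brainstem and 0 lower, while 6.87% of all probe sets were higher and 5.11% lower. The 15 probe sets belonged to 12 genes, all of paralog groups 2 to 8. All brainstem arrays lay above all cerebellum arrays in 18 Hox probe sets and below them in 1. Over all probe sets this held for 22.4% and 14.4%, so that groups without overlap were common. In groups 1 to 5, 10 of 14 measured genes were higher, in groups 6 to 8 it was 2 of 6, and in groups 9 to 13 it was 0 of 14. The median difference was 1.79 in groups 1 to 5, 0.20 in groups 6 to 8 and 0.04 in groups 9 to 13, beside 0.065 over all probe sets. With no minimum difference, 26 Hox probe sets passed the adjusted p, 23 of them higher and 3 lower, when 58.3% of all probe sets did. Most Hox levels were low, and only 10 of the 42 probe sets reached a mean of 5 in any group. Array medians in cerebellum were 4.42 to 4.54. Low levels were not set against background, so that the 0 of 14 in groups 9 to 13 does not show equal RNA. Fold differences below are ratios over such low cerebellum levels.

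**Figure D1:**
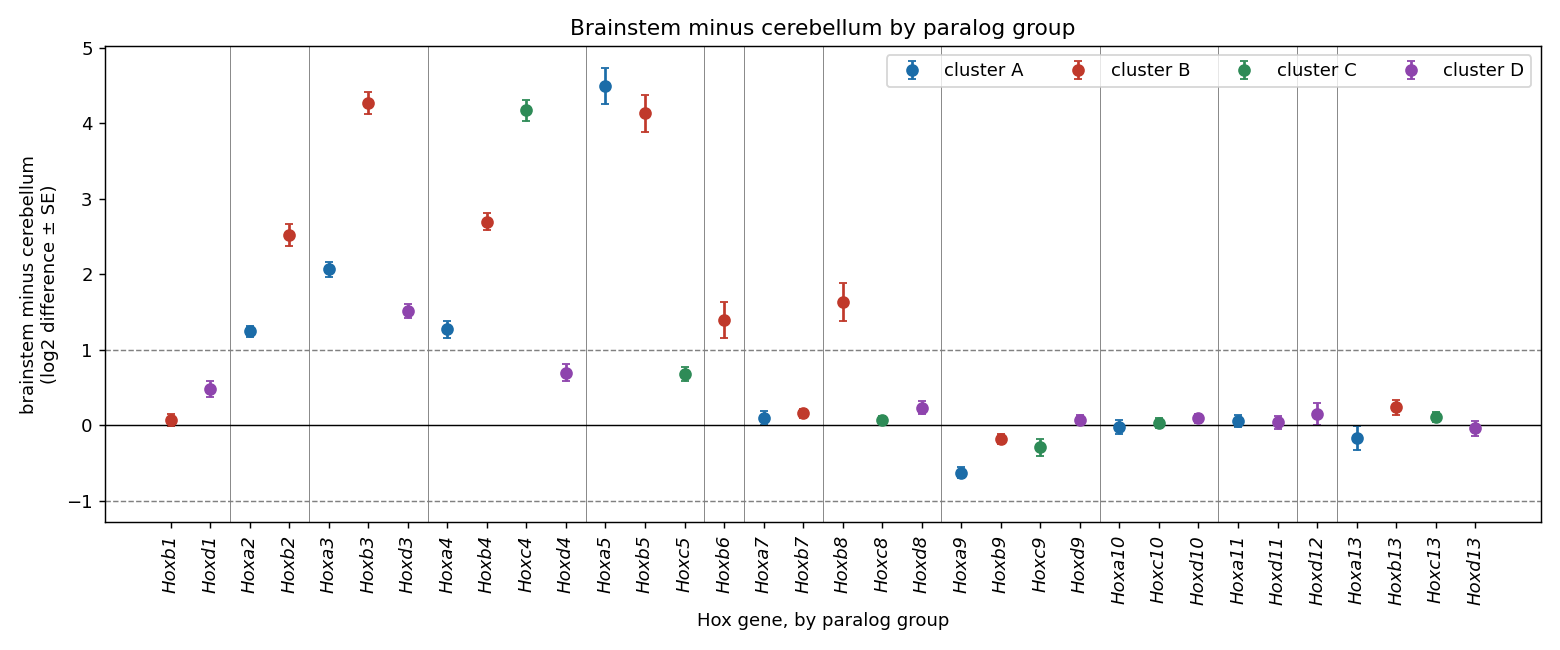
Brainstem minus cerebellum for the 34 measured Hox genes, with paralog groups side by side from 1 to 13 and points coloured by cluster; points are log2 differences of 8 against 8 arrays with the standard error, and dashed lines mark 1 and -1. The 12 genes above the upper line lie in groups 2 to 8, led by Hoxa5 at 4.50, and no gene lies below the lower line.

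The genes of group 1, which start the hindbrain pattern, were not called, with Hoxb1 at 0.07 ± 0.08 and Hoxd1 at 0.48 ± 0.10. The genes of group 2 set the identity of hindbrain segments and of the arches below them. Hoxb2, which acts in facial motor neuron development, ranged over 5.26, 5.86 and 6.17 (lowest, median and highest of 8 mice) in brainstem, 2.99, 3.23 and 3.88 in cerebellum and 3.01, 3.29 and 3.86 in liver. The brainstem mice were all above the others, and the difference from cerebellum was 2.52 ± 0.15 (SE, n = 8 each, limma adjusted p = 4.614e-13). Hoxa2, the selector gene of the second arch, had 3.75, 3.997 and 4.21 in brainstem, 2.51, 2.78 and 3.05 in cerebellum and 3.45, 3.85 and 4.002 in liver. Its brainstem and cerebellum values did not overlap (difference 1.24 ± 0.08), but its brainstem and liver values did.

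Group 3 acts in the caudal hindbrain and in the organs of the throat. Hoxb3 had 6.38, 7.03 and 7.61 in brainstem, 2.61, 2.76 and 3.04 in cerebellum and 4.21, 4.41 and 4.69 in liver. All 3 tissues were thus apart, with brainstem 4.27 ± 0.15 above cerebellum (limma adjusted p = 1.743e-17), and the second Hoxb3 probe set was also called at 2.20. Hoxa3, needed for thymus and parathyroid, had 4.40, 4.83 and 5.22 in brainstem, 2.55, 2.78 and 2.999 in cerebellum and 3.39, 3.58 and 3.95 in liver. Its brainstem minus cerebellum difference was 2.07 in the brightest of 4 probe sets and 1.42 in another, while the remaining pair gave 0.10 and 0.32 and reached at most 3.15 in any tissue. The mean of the 4 probe sets gave 0.98, which is not called. Hoxd3, which shapes the first neck vertebrae, had 3.93, 4.38 and 4.64 in brainstem, 2.54, 2.77 and 3.06 in cerebellum and 2.91, 3.10 and 3.44 in liver, with brainstem apart from both.

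Paralog group 4 acts at the border of hindbrain and spinal cord. Hoxc4 gave the lowest p of all members, with 6.40, 7.19 and 7.64 in brainstem, 2.73, 2.88 and 3.38 in cerebellum and 2.599, 2.73 and 2.82 in liver. Brainstem exceeded cerebellum by 4.17 ± 0.14 (18.02-fold, limma adjusted p = 1.369e-17), and no brainstem mouse came near the others. Hoxb4, known also from blood stem cells, had 5.15, 5.63 and 5.95 in brainstem, 2.64, 2.96 and 3.14 in cerebellum and 3.81, 4.13 and 4.34 in liver, and its second probe set was called at 1.09, but not with array medians set equal (0.997). Hoxa4 had 4.19, 4.59 and 5.12 in brainstem, 3.02, 3.26 and 3.67 in cerebellum and 4.15, 4.39 and 4.75 in liver. For Hoxa4 the brainstem and liver values overlapped, and the cerebellum stood below both. Hoxd4 passed the adjusted p without reaching 1 (0.70 ± 0.11).

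Group 5 showed the largest difference. Hoxa5, which in mice is needed for phrenic motor neurons and the lung, had 7.92, 6.84, 8.37 and 7.62 in the 4 Knock-In brainstems and 8.28, 8.28, 6.45 and 6.49 in the 4 WT brainstems. In cerebellum its values ran from 2.90 to 3.22 and in liver from 3.34 to 4.39, so that the lowest brainstem lay well above every other array. Brainstem exceeded cerebellum by 4.50 ± 0.24 (22.6-fold, limma adjusted p = 7.632e-14). Hoxb5 had 7.12, 6.33, 7.70 and 6.96 in Knock-In and 7.82, 7.70, 5.67 and 5.92 in WT brainstem, against 2.65 to 3.17 in cerebellum and 3.26 to 3.80 in liver (brainstem minus cerebellum 4.13 ± 0.24). Hoxc5 passed the adjusted p at 0.68 ± 0.09 and was not called.

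**Figure D2:**
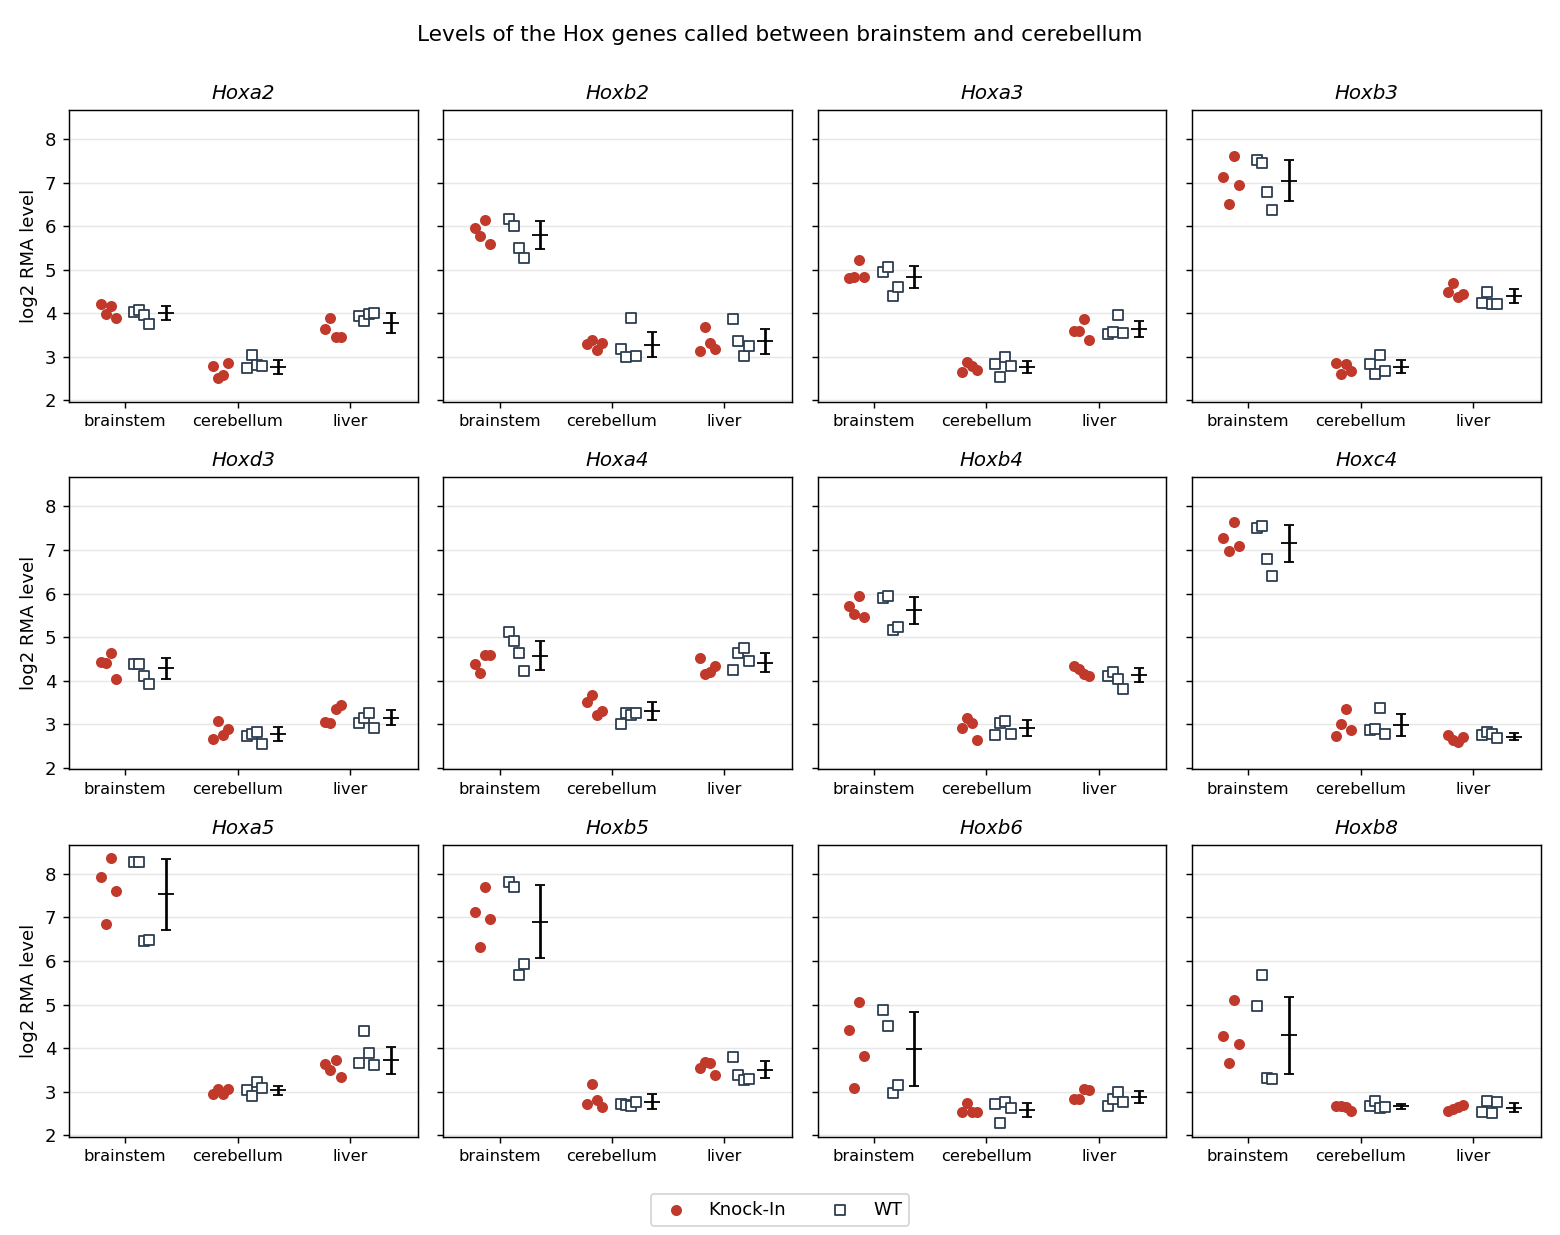
Levels (log2 RMA values) of the 12 Hox genes called between brainstem and cerebellum, 1 panel per gene, with 4 Knock-In (filled circles) and 4 WT (open squares) arrays per tissue; bars are the mean and SD of the 8 arrays. The brainstem arrays lie above the cerebellum arrays in every panel, as they do for 22.4% of all probe sets. Hoxa5, Hoxb5, Hoxb6 and Hoxb8 spread most between brainstem mice. Heights compare within a panel, not between probe sets.

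Among groups 6 to 8, only genes of cluster B were called. Hoxb6 had 4.42, 3.08, 5.05 and 3.82 in Knock-In and 4.89, 4.50, 2.96 and 3.15 in WT brainstem, against 2.27 to 2.76 in cerebellum and 2.68 to 3.05 in liver. Every brainstem mouse was above every cerebellum array, but the lowest lay within the range of the livers, and the difference from cerebellum was 1.40 ± 0.24 (limma adjusted p = 2.606e-05). Hoxb8, which in mice marks a set of microglia and is known from grooming behaviour, had 4.28, 3.66, 5.11 and 4.10 in Knock-In and 4.96, 5.67, 3.31 and 3.29 in WT brainstem, against 2.56 to 2.79 in cerebellum and 2.51 to 2.79 in liver. Every brainstem mouse was above every other array (1.63 ± 0.25 over cerebellum, limma adjusted p = 5.106e-06). Hoxb7 lies between these genes in the cluster and differed by 0.16 ± 0.06, past the adjusted p but not called. Hoxa7, Hoxc8 and Hoxd8 differed by 0.07 to 0.23.

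The 14 measured genes of groups 9 to 13 had brainstem minus cerebellum differences from -0.63 to 0.24. The largest was that of Hoxa9, a gene of blood progenitors, which was 0.63 ± 0.07 lower in brainstem (3.03 to 3.43) than in cerebellum (3.74 to 4.19) without reaching the minimum of 1. Hoxc9, the repressor of limb-level motor neuron fate in the chest cord, and Hoxb9 also passed the adjusted p at -0.29 and -0.18, and Hoxb13 at 0.24. The other genes of these groups missed the adjusted p.

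The order of the 8 brainstem mice was much alike from gene to gene among the 12 called Hox genes. How the same mice ranked over all probe sets was not counted, so that this order cannot be called particular to Hox genes. The SD over the 8 mice was 0.82 for Hoxa5, 0.84 for Hoxb5, 0.84 for Hoxb6 and 0.88 for Hoxb8, and 0.15 to 0.47 for the other 8 called genes. Of the 12 called genes, Knock-In replicate 3 was among the 3 highest mice in 11, WT replicate 2 in 11 and WT replicate 1 in 10. WT replicate 4 was among the 3 lowest mice in 12, WT replicate 3 in 11 and Knock-In replicate 2 in 7, so that both ends of the order held mice of both genotypes. Between the highest and the lowest mouse, Hoxb8 differed 5.22-fold, Hoxb5 4.43-fold, Hoxb6 4.25-fold and Hoxa5 3.78-fold.

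The relation was then measured against Hoxa5, a choice made after the values were seen, for 75 other genes and marker sets over the 8 mice. Hoxb5 followed Hoxa5 at r = 0.990 and rho = 0.929 (exact permutation p = 0.000174 and 0.00223, adjusted p = 0.00558 and 0.0279), and without the 2 mice farthest from the Hoxa5 median r was 0.978. Hoxb6 did so at r = 0.971 and rho = 0.976 (exact permutation p = 0.000223 and 0.000397, adjusted p = 0.00558 and 0.0279; r = 0.972 without those mice). Hoxc4, in another cluster, had r = 0.949 and rho = 0.952 (exact permutation p = 0.000198 and 0.00114, adjusted p = 0.00558 and 0.0279; r = 0.945 without them). Of the 75 relations 8 passed an adjusted p of 0.05 by both measures, and these were Hoxb2, Hoxa3, Hoxb3, Hoxb4, Hoxc4, Hoxb5, Hoxb6 and Hoxb8. Without the 2 outer mice r was 0.674 for Hoxa3 and 0.740 for Hoxb2, below their 0.870 and 0.885 over 8 mice, and it was 0.858 for Hoxb4, 0.882 for Hoxb8 and 0.987 for Hoxb3. Hoxd3 had r = 0.697, Hoxa2 0.702 and Hoxa4 0.629, which missed it. None of the other homeobox genes passed, the nearest by p being Irx3 at r = -0.757 (exact permutation p = 0.00942, adjusted p = 0.0707). Without the 2 outer mice Irx3 had r = -0.517. Lhx9 had r = -0.812 (-0.95 without them) and Prrxl1 r = 0.81 (0.897 without them). Only called Hox genes entered, while the other homeobox genes entered unfiltered, some with little spread (SD 0.065 for Tlx1). How many passed therefore cannot be compared between the Hox genes and the others. The share of all probe sets that followed Hoxa5 as closely was not counted. Hoxb5os, a transcript of the B cluster, had r = 0.910 (exact permutation p = 0.000992, adjusted p = 0.0124; rho adjusted p = 0.0892).

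Marker sets were read in the same mice. Choroid plexus markers ran with Hoxa5 at r = 0.766 and fibroblast and meninges markers at r = 0.754 (exact permutation p = 0.0302 and 0.0176, adjusted p = 0.142 and 0.102), each falling to 0.458 and 0.461 without the 2 outer mice. Granule cell markers had r = 0.481 and rho = 0.786 (exact permutation p = 0.2 and 0.0279, adjusted p = 0.455 and 0.174), with r = 0.616 without those mice. Leukocyte markers had r = 0.614 and rho = 0.667 (adjusted p = 0.282 and 0.249 from the exact permutation test), with r = 0.724 without them, and the brainstem neuron markers had r = 0.198. Their part in the spread of Hox levels was not tested.

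**Figure D3:**
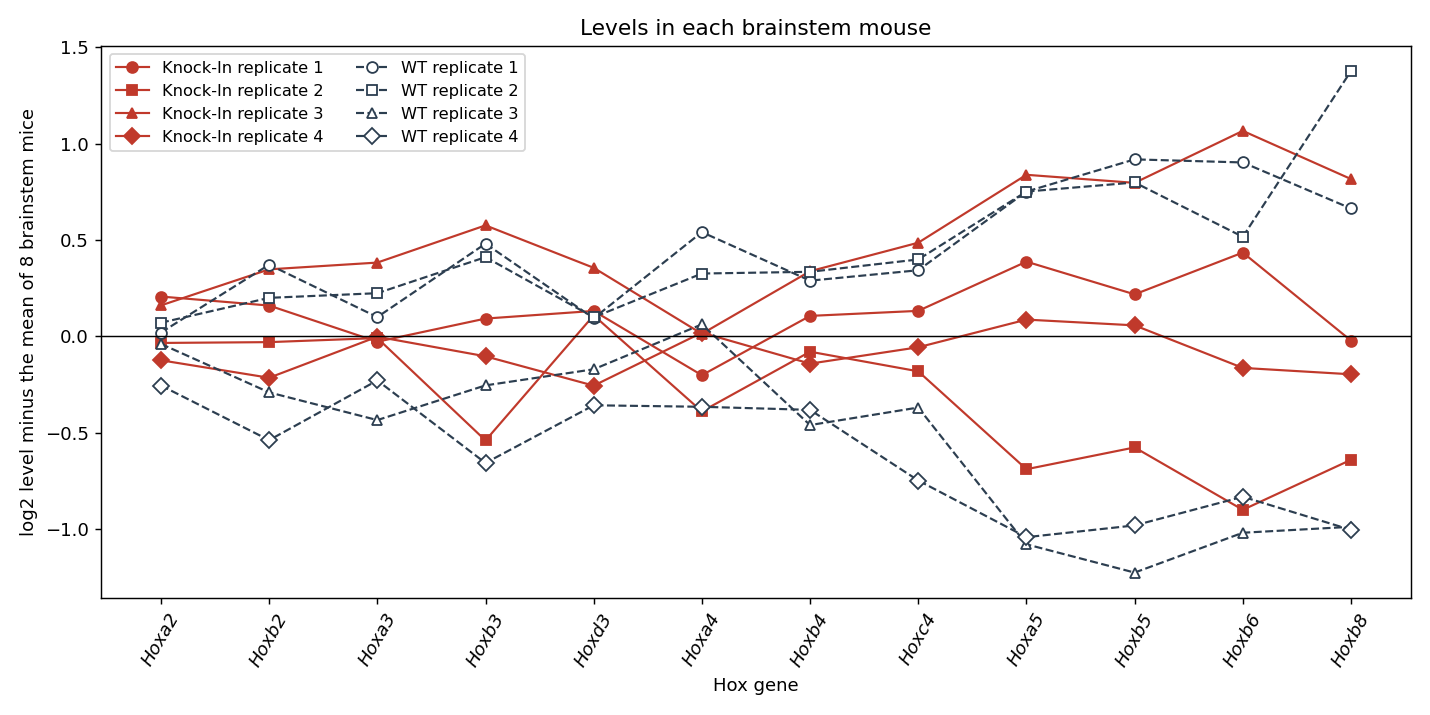
Level of each called Hox gene in each of the 8 brainstem mice, as the log2 level minus the mean of the 8 mice, with Knock-In mice in solid lines and WT mice in dashed lines. Knock-In replicate 3, WT replicate 1 and WT replicate 2 run above 0 for Hoxa5, Hoxb5, Hoxb6 and Hoxb8, and WT replicate 3, WT replicate 4 and Knock-In replicate 2 run below it.

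Brainstem was next compared with liver. Of the 42 Hox probe sets 11 were higher in brainstem (10 genes) and 6 lower (6 genes), beside 30.2% higher and 15.0% lower of all probe sets, so that neither share stood out from the background. All brainstem arrays lay above all liver arrays in 12 Hox probe sets and below them in 9, beside 38.6% and 24.9% of all probe sets. With the array medians set equal the Hox split was 8 higher and 10 lower, and that of all probe sets 23.4% higher and 23.7% lower. The calls in each direction differed in their place in the clusters on the deposited scale. The 10 higher genes were all of groups 2 to 8, namely Hoxc4 (4.44), Hoxa5 (3.81), Hoxb5 (3.40), Hoxb3 (2.64), Hoxb2 (2.45), Hoxb8 (1.66), Hoxb4 (1.49), Hoxa3 (1.21), Hoxd3 (1.14) and Hoxb6 (1.11), and the 6 lower genes were all of groups 9 to 13. With the medians set equal the lower calls were no longer of groups 9 to 13 alone, since Hoxd4 of group 4 (-1.19) and Hoxa7 (-1.13) and Hoxb7 (-1.08) of group 7 were then called lower, along with Hoxb9 (-1.24). The calls of Hoxa3, Hoxd3 and Hoxb6 were lost in that setting, at 0.79, 0.72 and 0.69, and Hoxa3 fell to 0.58 with its probe sets averaged. That of Hoxb6 was also lost without brainstem WT replicate 1 (0.94) or without brainstem Knock-In replicate 3.

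The 6 genes with lower levels in brainstem than in liver are known for trunk, limb and genital patterning. Hoxc9 had 5.52, 4.84, 5.08 and 5.07 in Knock-In livers and 4.49, 5.23, 5.54 and 5.02 in WT livers, against 2.86 to 3.25 in brainstem and 3.06 to 3.52 in cerebellum (brainstem minus liver -2.02 ± 0.12). Hoxd12, a gene of the digits, had 5.16, 4.61, 5.0 and 4.96 in Knock-In livers and 3.77, 4.91, 5.31 and 5.05 in WT livers, against 2.72 to 3.06 in brainstem and 2.53 to 2.91 in cerebellum (-2.02 ± 0.14). Liver WT replicate 1 was the lowest liver for both genes, though still above every brain array.

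The genes of group 13 act at the ends of limbs and trunk. Hoxa13 had 4.70, 4.93, 5.19 and 5.55 in Knock-In livers and 3.84, 5.21, 5.28 and 5.33 in WT livers, against 2.84 to 3.23 in brainstem and 2.88 to 3.56 in cerebellum (brainstem minus liver -2.004 ± 0.16). Hoxb13, known from the prostate, had 4.97, 5.09, 5.08 and 5.005 in Knock-In livers and 4.33, 5.07, 5.29 and 4.98 in WT livers, against 2.93 to 3.39 in brainstem and 2.69 to 3.20 in cerebellum (-1.80 ± 0.10). WT replicate 1 was again the lowest liver for both. Hoxd13 had 4.79, 4.62, 4.62 and 4.76 in Knock-In livers and 3.86, 4.66, 4.67 and 4.51 in WT livers, against 2.604 to 3.17 in brainstem and 2.71 to 2.95 in cerebellum (-1.78 ± 0.10). A second Hoxd13 probe set did not show this, with 2.76 to 3.12 in brainstem, 2.73 to 2.89 in cerebellum and 2.77 to 3.07 in liver, and the mean of both gave -0.88, which is not called. Hoxa9 had 4.55, 4.63, 4.56 and 4.55 in Knock-In livers and 4.78, 4.89, 5.05 and 4.79 in WT livers, and its brainstem minus liver difference was -1.44 ± 0.07. Some marker sets also had members lower in brainstem than in liver, where 15.0% of all probe sets were lower. In these sets 4 of 6 leukocyte markers were lower and 1 higher (median -1.275). Lower too were 3 of 5 skeletal muscle markers (-1.002), 2 of 6 fibroblast and meninges markers (-0.74) and 7 of 7 hepatocyte markers (-9.651). Endothelial markers were split, with 2 lower and 2 higher of 6 (-0.814). The neuron, oligodendrocyte and choroid plexus sets were mostly higher in brainstem. The mean level per array ran from 4.62 to 4.75 in brainstem and 5.06 to 5.85 in liver for leukocyte markers, from 3.55 to 3.84 in brainstem and 4.25 to 5.11 in liver for skeletal muscle markers, and from 5.06 to 5.57 in brainstem and 5.94 to 6.19 in liver for fibroblast and meninges markers. Their part in the Hox levels was not tested. Without liver WT replicate 1, the array that correlated least with its group, the differences were -2.18 for Hoxa13, -2.18 for Hoxd12, -2.12 for Hoxc9, -1.90 for Hoxb13 and -1.87 for Hoxd13. Detection calls were not used, so that these levels were not set against background.

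**Figure D4:**
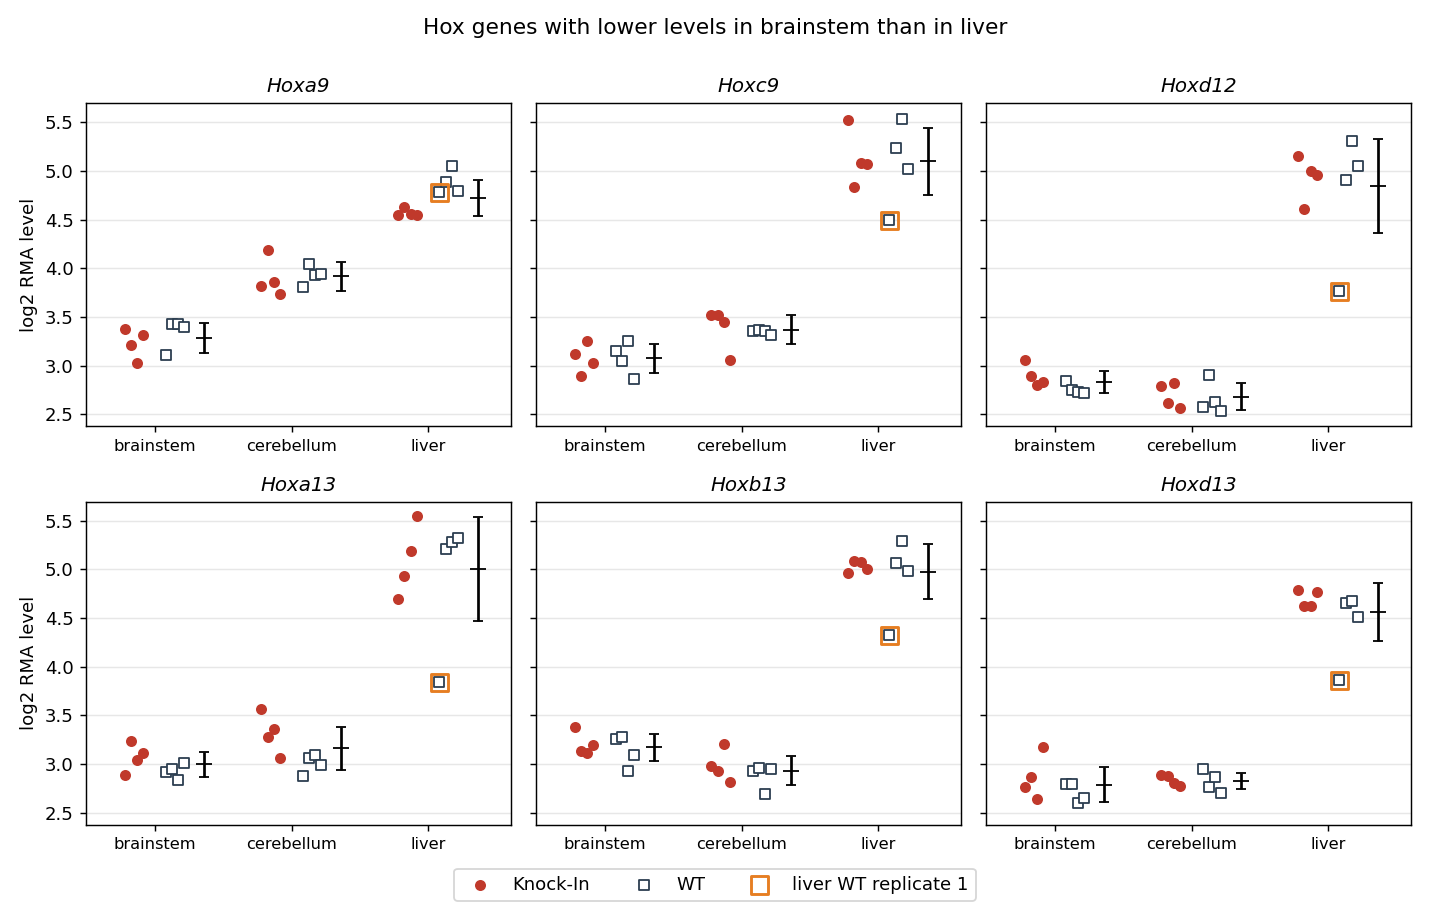
Levels (log2 RMA values) of the 6 Hox genes with lower levels in brainstem than in liver, 1 panel per gene, with Knock-In (filled circles) and WT (open squares) arrays in each tissue and the mean and SD of the 8 arrays; the orange frame marks liver WT replicate 1. That array is the lowest liver in the panels of Hoxc9, Hoxd12, Hoxa13, Hoxb13 and Hoxd13, between 3.77 and 4.49.

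Between cerebellum and liver, 0 Hox probe sets were higher in cerebellum and 10 were lower, while 29.8% of all probe sets were higher and 16.5% lower. The median over the 34 genes was -0.58, beside 0.084 over all probe sets. All cerebellum arrays lay above all liver arrays in 0 Hox probe sets and below them in 20, beside 37.4% and 27.3% of all probe sets. The lower genes were Hoxa2 (-1.01), Hoxb3 (-1.63), Hoxa4 (-1.11), Hoxb4 (-1.21) and Hoxd4 (-1.47) of groups 2 to 4, and Hoxc9 (-1.73), Hoxd12 (-2.16), Hoxa13 (-1.84), Hoxb13 (-2.04) and Hoxd13 (-1.74) of groups 9 to 13. Hoxd4 had 2.68 to 3.33 in cerebellum and 3.93 to 4.72 in liver, so that this gene of the upper neck was higher in liver, and in brainstem it had 3.41 to 3.98. With the medians set equal, 17 Hox probe sets were lower and 0 higher, and of all probe sets 24.4% were higher and 23.5% lower. The call of Hoxa2 rested on single arrays, holding in 9 of 16 fits that left out 1 array, and Hoxa2 (-0.92) and Hoxa4 (-0.88) were not called in Knock-In arrays alone. With probe sets averaged, Hoxb4 (-0.82) and Hoxd13 (-0.92) were not called.

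The study's question was what the expanded repeat changes, and for the Hox genes no change was called. Of the 42 Hox probe sets limma called 0 in brainstem, 0 in cerebellum and 0 in liver between Knock-In and WT, beside 0.0155%, 0.0444% and 0.147% of all probe sets. At an unadjusted p under 0.05 there were 0, 0 and 4, beside 4.17%, 3.59% and 8.61% of all probe sets. The difference of the Knock-In effect between tissues was called for 0 Hox probe sets in brainstem against cerebellum (0.00222% of all), in brainstem against liver (0.00888%) and in cerebellum against liver (0.00888%), with 1 at an unadjusted p under 0.05 in each.

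In brainstem the 5 genes of lowest p were Hoxb1, Hoxd10, Hoxa4, Hoxb7 and Hoxd9, with Knock-In minus WT differences of -0.21, -0.16, -0.28, -0.14 and -0.14 and limma's adjusted p at 0.9999 for each. Hoxb1, the gene of facial motor neuron identity, had 3.005, 2.48, 2.78 and 2.87 in Knock-In and 3.04, 3.05, 2.91 and 2.96 in WT mice, which overlap. Hoxa5 differed by 0.31 ± 0.34 there, less than its spread between mice of 1 genotype. In cerebellum the lowest p belonged to Hoxc8 (0.14), Hoxb9 (-0.14), Hoxa4 (0.24), Hoxa2 (-0.16) and Hoxa11 (0.16), all with an adjusted p of 1 from limma and with overlapping mice.

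In liver the lowest p belonged to Hoxa9 at -0.31 ± 0.10 (limma adjusted p = 0.3231). Its 4 Knock-In values lay below the 4 WT values, from 4.55 to 4.63 in Knock-In against 4.78 to 5.05 in WT, and the exact permutation test gave p = 0.0286, the smallest that 4 against 4 mice allow. Hoxa2 was -0.32 ± 0.11 (limma adjusted p = 0.3356), with 3.64, 3.88, 3.45 and 3.46 in Knock-In and 3.93, 3.83, 3.97 and 4.002 in WT livers, which overlap. Hoxd13, Hoxc13 and Hoxa11 followed at 0.27, -0.17 and -0.19. The largest difference of any Hox probe set was that of the dimmer Hoxc5 probe set, at 0.46 ± 0.19 (limma adjusted p = 0.473, exact permutation p = 0.0286), with 4.07, 3.697, 3.64 and 3.895 in Knock-In and 3.097, 3.21, 3.63 and 3.51 in WT livers, which do not overlap. It was picked with its values in view, and the brighter Hoxc5 probe set did not separate the genotypes. Of the 42 Hox probe sets, 1 lay wholly above and 2 wholly below WT in liver, beside 2.76% of all probe sets in either direction. A missed threshold does not show that the genotypes were alike, and the SE reached 0.34 for Hoxa5. For brainstem this SE is too small, since the quieter tissues share in it.

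**Figure D5:**
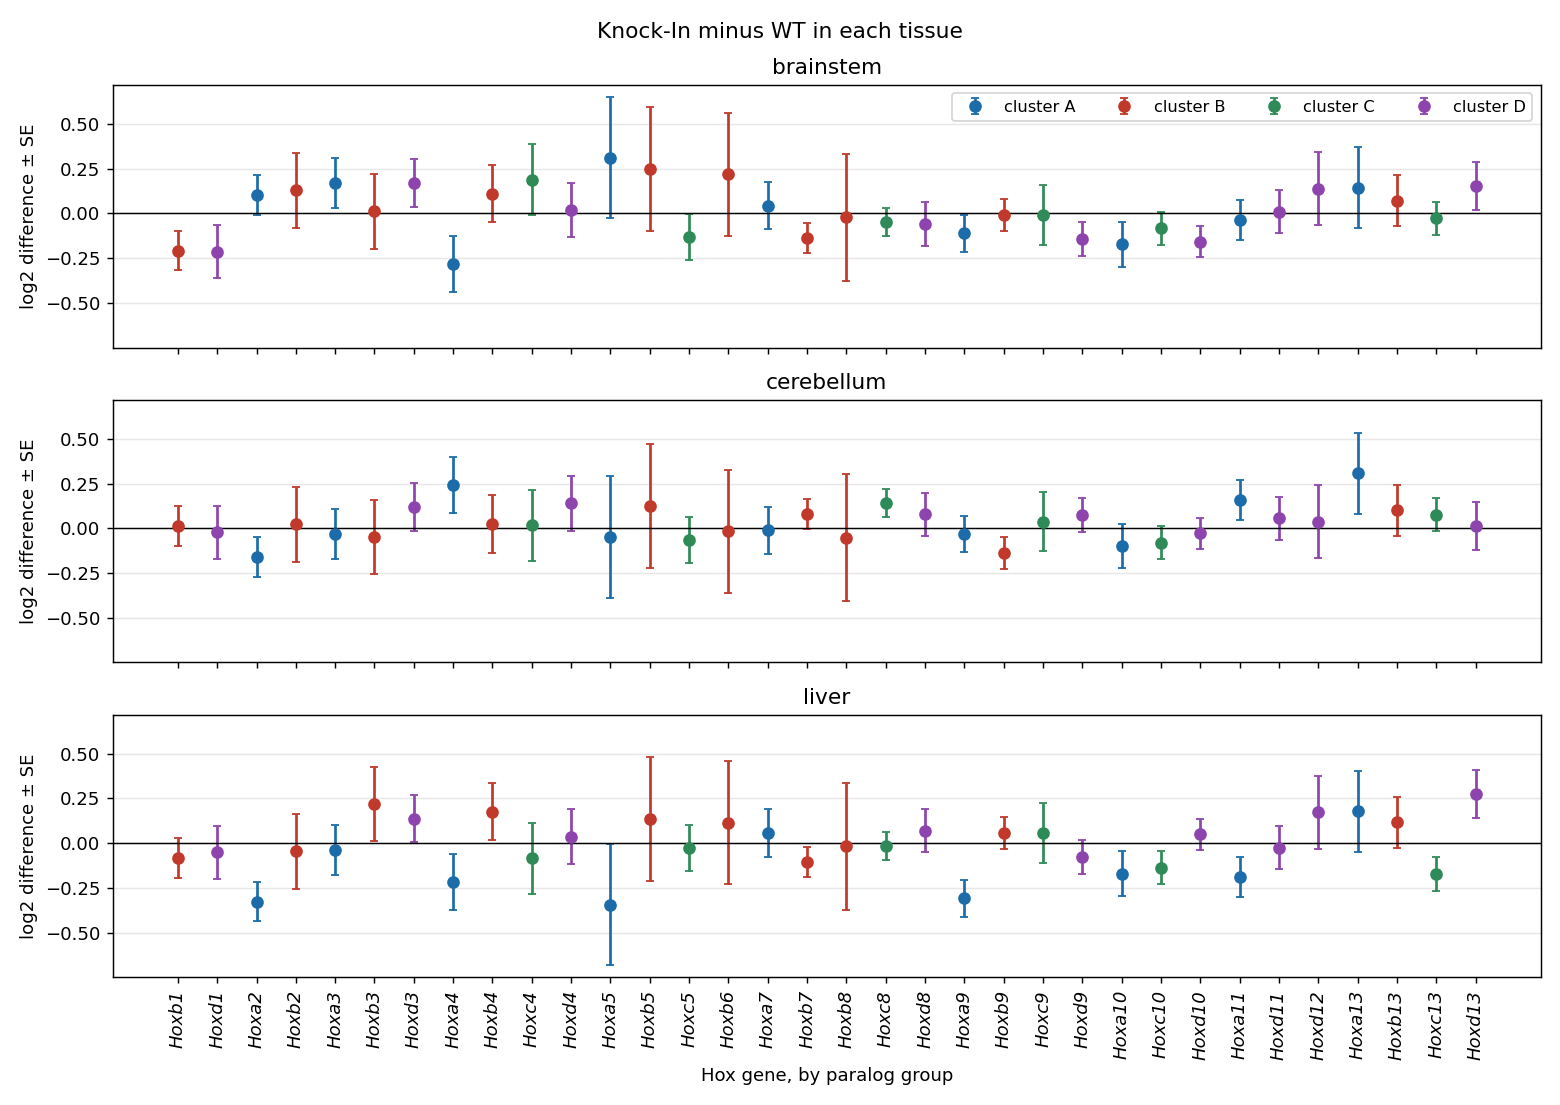
Knock-In minus WT for the 34 measured Hox genes in brainstem, cerebellum and liver, with paralog groups from 1 to 13 and points coloured by cluster; points are log2 differences of 4 against 4 arrays with the standard error. In all 3 panels the points, 1 for the brightest probe set of each gene, lie between -0.34 and 0.31, and the brightest probe sets of Hoxa9 and Hoxa2 in liver lie farthest from 0 relative to their error.

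Genes that act with, upstream of or beside the Hox genes were read from 9 lists. For each list, the counts between brainstem and cerebellum stand beside 6.87% higher and 5.11% lower of all probe sets. Hox proteins bind DNA together with Pbx and Meis proteins, and of 8 measured cofactors 2 were higher in brainstem than in cerebellum and 0 lower (median 0.11, beside 0.065 over all probe sets). Meis2 averaged 8.997 in brainstem, 4.41 in cerebellum and 4.39 in liver, a brainstem minus cerebellum difference of 4.59 ± 0.17, and Pbx3 differed by 1.10 ± 0.08. Meis1 did not reach the minimum and ran the other way, at -0.98 ± 0.13. Against liver, 6 of the 8 cofactors were higher in brainstem, where 30.2% of all probe sets were.

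Of 12 genes of retinoic acid supply and response, 3 were higher in brainstem than in cerebellum and 0 lower (median 0.30). These were Crabp1, a binding protein of retinoic acid (2.17 ± 0.13), and the receptors Rxrg (1.52 ± 0.12) and Rxra (1.40 ± 0.10). Aldh1a2, the enzyme that makes retinoic acid next to the embryonic cord, differed by 0.71 ± 0.12 and was not called. In liver the breakdown enzyme Cyp26a1 averaged 8.49, against 3.04 in brainstem and 2.92 in cerebellum. Of the 4 measured direct activators none was called between brainstem and cerebellum, and Egr2, the hindbrain factor that switches on group 2 genes, averaged 3.02 in brainstem and 2.65 in cerebellum.

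The Polycomb list had 0 higher and 1 lower of 20 between brainstem and cerebellum (median -0.15), the 1 being Ezh2, which writes the silencing mark (-1.15 ± 0.11). The trithorax list had 0 of 9 called (median -0.27). Against liver, 14 of 20 Polycomb and 7 of 9 trithorax genes were higher in brainstem, beside the 30.2% of all probe sets.

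Genes flanking the clusters had 4 higher and 0 lower of 14 between brainstem and cerebellum (median 0.61), with Evx1 beside cluster A at 1.56 ± 0.08, Snx11 near cluster B at 1.13, Lnpk near cluster D at 1.07 and Skap2 near cluster A at 1.01. Of 3 measured noncoding RNAs of the clusters, Hoxb5os (1.38 ± 0.19) and Hoxaas2 (1.28 ± 0.12) were higher in brainstem than in cerebellum, while Hoxa11os differed by 0.07 and was 1.13 lower in brainstem than in liver. Both lie within the clusters beside called Hox genes, and the strand of their probes was not checked here.

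Homeobox genes outside the clusters were not on one side. Of 17 genes of forebrain, midbrain and isthmus, 3 were higher in brainstem than in cerebellum and 1 lower (median 0.26), with Six3 at 2.69 ± 0.13, Gbx2 at 2.01 ± 0.15, Otx1 at 1.08 ± 0.15 and En2, the cerebellar engrailed gene, at -3.52 ± 0.08. Of 26 genes of hindbrain and spinal cord, 10 were higher and 2 lower (median 0.43), beside 6.87% and 5.11% of all probe sets. The lowest p belonged to Lhx9 (3.88 ± 0.07), Lhx2 (3.44 ± 0.09), Irx2 (2.56 ± 0.09) and Lhx1, a Purkinje cell gene, at -2.25 ± 0.10. In the genotype comparisons 0 genes of these 9 lists were called in any tissue, the nearest being Kmt2d in liver at 0.47 ± 0.12 (limma adjusted p = 0.1527).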

How the data were processed

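A service facility isolated the RNA and hybridized it to Affymetrix mouse arrays, and the authors deposited log2 values from RMA (background correction, quantile normalization and 1 summary per probe set); the submitters' notes name R 2.7.0. Array median levels were 4.56 to 4.62 in brainstem, 4.42 to 4.54 in cerebellum and 4.14 to 4.25 in liver. Detection calls and scan batches were not used, and the number of arrays limits the precision. No source says whether same-numbered arrays are 1 mouse.

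Of 45141 probe sets, 104 controls were left out. Names came from the platform annotation, updated through the RefSeq gene table of assembly GRCm38.p6 (28898 probe sets with 1 gene, 551 with several, 15588 with none). limma 3.58.1 in R 4.3.3 fitted 1 mean per tissue and genotype over 24 arrays, with one spread per probe set shared by all tissues. Tissue contrasts average both genotypes. Genotype and interaction calls used an adjusted p under 0.05. Exact permutation tests compared 4 with 4 arrays, and correlations over 8 mice used all 40320 orders. The fit was tested on simulated data that held 1 spread per probe set for all tissues. That test could not show what a spread that differs between tissues does.

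Named genes are all called members, the 5 of lowest p per genotype comparison and up to 4 of lowest p per list, and further list members were picked with their values in view. The members and lists were chosen with earlier results of these data known. Deviations of same-numbered brainstem and cerebellum arrays correlated at 0.22 to 0.38, each highest with its own number, so that the numbers pair these arrays. The own number was also highest for brainstem with liver (0.04 to 0.16) and cerebellum with liver (0.08 to 0.29). The reported tissue fits left this pairing out, and a block for it was among the alternatives. Alternatives were other scalings, filters, minimum differences, blocks, weights, probe set averages, single genotypes and leaving out 1 array. Promoter motifs were searched with Python 3.11.15 and figures drawn with matplotlib 3.10.9.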

Additional observations from a re-analysis of the deposited data

Results flagged for a closer look

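Among the 204 groups of 4 arrays formed by 34 Hox genes, 15 had 1 array far from the other 3, by Dixon's test of the gap over the range. Chance alone gives about 1 in 20 groups, and the share here was 7.35%. In brainstem, Hoxa3 stood at 5.222 in Knock-In replicate 3, above the range of 4.811 to 4.837 in the other arrays of its group. Hoxa9 was at 3.112 in WT replicate 1, below the range of 3.401 to 3.432 in the other arrays of its group. Hoxd10 stood at 3.087 in WT replicate 3, above the range of 2.848 to 2.863 in the other arrays of its group. In cerebellum, Hoxb6 stood at 2.729 in Knock-In replicate 2, above the range of 2.522 to 2.538 in the other arrays of its group. Hoxb13 was at 2.690 in WT replicate 3, below the range of 2.928 to 2.957 in the other arrays of its group. Hoxc9 stood at 3.060 in Knock-In replicate 4, below the range of 3.451 to 3.524 in the other arrays of its group. Hoxc9 was at 3.319 in WT replicate 4, below the range of 3.359 to 3.364 in the other arrays of its group. Hoxd8 stood at 3.194 in WT replicate 2, above the range of 2.959 to 2.974 in the other arrays of its group. In liver, Hoxa3 stood at 3.948 in WT replicate 3, above the range of 3.529 to 3.578 in the other arrays of its group. Hoxa9 was at 4.627 in Knock-In replicate 2, above the range of 4.549 to 4.559 in the other arrays of its group. Hoxa13 stood at 3.839 in WT replicate 1, below the range of 5.208 to 5.327 in the other arrays of its group. Hoxb3 was at 4.476 in WT replicate 2, above the range of 4.210 to 4.238 in the other arrays of its group. Hoxb7 stood at 3.972 in WT replicate 3, above the range of 3.812 to 3.835 in the other arrays of its group. Hoxc13 was at 3.175 in WT replicate 3, above the range of 2.851 to 2.899 in the other arrays of its group. Hoxd8 stood at 3.647 in Knock-In replicate 1, above the range of 3.161 to 3.236 in the other arrays of its group. The brainstem value of Hoxa3 belongs to Knock-In replicate 3, which was among the 3 highest mice for 11 of 12 called genes, and the liver value of Hoxa13 to the liver array that correlated least with its group. No Hox gene had a Knock-In effect that differed between tissues by the interaction test, and none had Knock-In mice wholly above WT in one tissue and wholly below it in another.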

How the results depend on the processing

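Between brainstem and cerebellum the 15 called Hox probe sets became 7 with dim probe sets left out (10 Hox probe sets tested), 26 with no minimum difference and 8 with a minimum of 2, all of the 7 and 8 higher in brainstem. Between brainstem and liver the 17 became 10, 35 and 8 under the same settings, and between cerebellum and liver the 10 became 5, 30 and 2, and 17 with array medians set equal. These follow from fewer probe sets tested or another minimum, and for the medians the cause was not tested; array medians differed by 0.089, 0.42 and 0.33 between the tissues of these comparisons. Leaving out 1 array gave 15 to 15, 16 to 18 and 9 to 10 calls, and 0 to 0 in every genotype and interaction comparison. With the replicate block the counts were 15, 17, 10 and, for each genotype and interaction comparison, 0, so that it changed no call count. Within a tissue that block tied Knock-In and WT arrays of the same number. Deviations of such arrays correlated at -0.30 to 0.21, which gives no ground for tying them. Of 396 values of single called genes, 384 kept their call, 12 lost it and 0 reversed. These were Hoxa3 with its probe sets averaged (0.98 in brainstem minus cerebellum, 0.58 in brainstem minus liver) and with medians set equal (0.79), Hoxb6 (0.69) and Hoxd3 (0.72) with medians set equal, Hoxb6 without 1 array (0.94), Hoxd13 averaged (-0.88 and -0.92), Hoxb4 averaged (-0.82), and in cerebellum minus liver Hoxa2 (-0.92) and Hoxa4 (-0.88) in Knock-In arrays alone and Hoxa2 without 1 array (-0.96). All 150 single values of the genotype comparisons kept their side of the threshold. In both tallies leaving out 1 array entered only as the lowest and the highest fit of each gene. Genes that a filter removed were not counted as lost. Over all 16 such fits, Hoxa2 in cerebellum minus liver kept its call in 9 and Hoxb6 in brainstem minus liver in 14. The spread of Hoxa5 was 0.82 in brainstem and 0.10 in cerebellum (SD, n = 8 each), while the fit holds 1 spread for both, so that its error is too small in brainstem and too large in cerebellum. In brainstem the error is too small as well for Hoxb5, Hoxb6 and Hoxb8 (SD 0.84, 0.84 and 0.88).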
